A study of Homo sapiens with 3 samples.

Results

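The genes described here encode collagens, laminins, nidogens, matrix proteoglycans and fibronectin, the proteins that build the extracellular matrix. They were taken by symbol: every protein-coding gene named as a collagen chain or a laminin chain, together with VCAN, AGRN, HSPG2, BGN, DCN, FN1, NID1 and NID2. This gave 64 genes of the 60609 in the tables, namely 44 collagens, 12 laminins and 8 others. Their RNA was sequenced in NCI-H209, a line grown from a human small cell lung carcinoma, after the cells had been infected with lentivirus carrying a short hairpin RNA that is switched on by doxycycline. The libraries named sh490 and sh1362 each carried a different hairpin against YES1, a Src-family tyrosine kinase, and the library named shGFP carried a control hairpin against GFP, which human cells lack. Cells of all the libraries were of the same line, on the same inducible vector, and doxycycline was described as 1 µg/mL every 2 days. There was 1 library per hairpin, 3 in all, and the labels say neither how long induction lasted nor whether the infected cells were cloned.

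Collagens are trimers whose chains wind into a triple helix, and the helix requires a glycine, the smallest amino acid, at the head of each triplet of residues. Laminins are trimers of an alpha, a beta and a gamma chain, which form the first sheet of the basement membrane under an epithelium. Type IV collagen forms a second network in that membrane, nidogen and the heparan sulfate proteoglycan perlecan link the networks, and fibrillar collagens and fibronectin belong mainly to the matrix between cells. Small cell lung cancer cells grow in a stroma rich in matrix, and laminin and fibronectin are known to support their survival through integrins.

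The glycine repeat can be read in the coding sequence, since all glycine codons begin with GG. It is shown here for 4 fibrillar collagens that were present in the line, because these genes include those with the largest differences between libraries. Each line below is 1 exon of 54 bases taken from the middle of the repeat in the GENCODE version 29 transcript with the longest coding sequence (GRCh38, minus strand except for COL27A1), printed 5′ to 3′, with capitals for the glycine codon that opens each step of the repeat. The exons are chr1:102965487-102965540 in COL11A1, chr1:85909950-85910003 in COL24A1, chr2:189062865-189062918 in COL5A2 and chr9:114252593-114252646 in COL27A1.
COL11A1: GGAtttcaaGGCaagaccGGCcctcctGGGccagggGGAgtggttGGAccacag
COL24A1: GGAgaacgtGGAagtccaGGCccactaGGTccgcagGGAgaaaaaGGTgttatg
COL5A2: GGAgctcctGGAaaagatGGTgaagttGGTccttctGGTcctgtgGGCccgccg
COL27A1: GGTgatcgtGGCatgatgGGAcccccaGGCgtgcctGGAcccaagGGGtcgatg

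In each of these exons a glycine codon opened all 6 steps of 9 bases; in COL11A1 another glycine codon, left in lower case, falls inside a step. The longest unbroken run of such steps was 338 in COL11A1 and 339 in COL5A2, but 216 in COL24A1 and 217 in COL27A1, so the 4 genes fall into a long and a short form. In the 6 type IV chains, whose helix is broken by many interruptions, the longest run was 38 to 66 steps. Among the 20 genes that are not collagens it was 1 to 4 steps. Glycine codons made up 9.17% to 30.7% of the codons of the 44 collagens and 5.30% to 11.2% of those of the others.

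**Figure D1:**
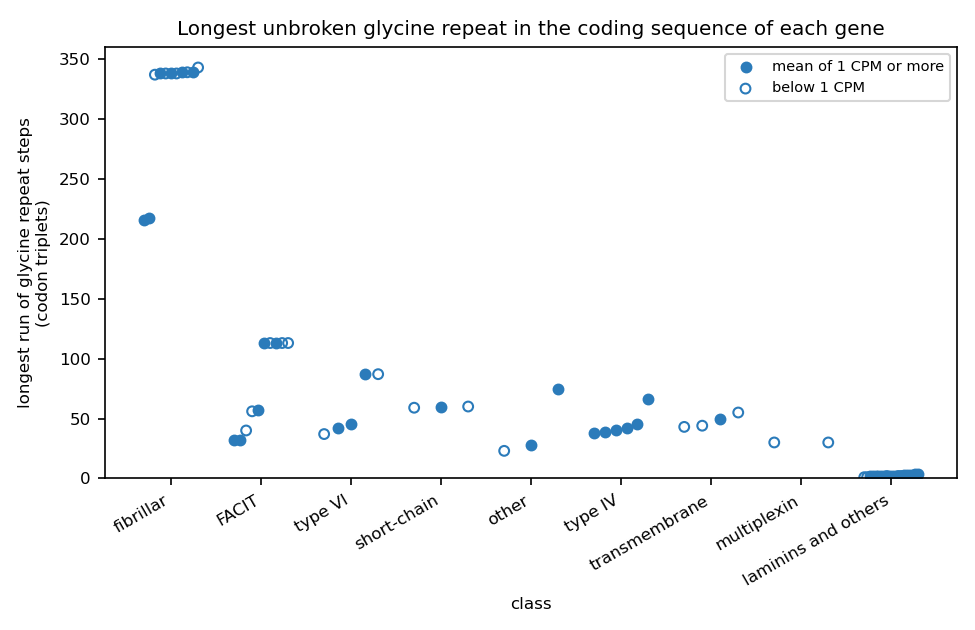
Longest unbroken run of glycine repeat steps (codon triplets, vertical axis) in the coding sequence of each gene, by class; filled points are genes whose mean reached 1 CPM in these libraries and open points are genes below it. The fibrillar collagens lie at 216 to 343 steps and the laminins and other genes without a collagen helix at 1 to 4.

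The libraries held 7791747 counts for sh490, 7421552 for sh1362 and 4899006 for shGFP. Levels of 1 gene across libraries are given as CPM, counts scaled to the library's TMM-adjusted total, and levels of different genes are compared only as TPM, which also divides by exon length. Where 3 values follow each other they stand for sh490, sh1362 and shGFP, in that order. YES1 was at 6.79% of its shGFP level in sh490 and 9.66% in sh1362. Of the 8 neuroendocrine lung cancer markers 8 were present, with summed levels of 3590, 4403 and 3105 CPM in sh490, sh1362 and shGFP. Red cell markers summed to 18.7, 20.4 and 735 CPM, so shGFP carried globin RNA, 0.0726% of its counts for the whole list. White cell markers summed to 2.02, 2.98 and 7.44 CPM. The sum was highest in shGFP, where S100A9 had 20 counts (1 and 0 in the hairpin libraries) and S100A8 had 5 (0 and 0). The rest of that list did not share this pattern: CD14 had 14, 10 and 6 counts, LYZ 1, 9 and 3, PTPRC 0, 3 and 2, and CD3E 0 in all. The fibroblast markers, which would show stromal cells, summed to 2.27, 1.35 and 3.31 CPM, with 5 of 8 at 0 in each library and FAP, POSTN and PDPN at 0 in all. PDGFRA, the 1 with a mean of 1 CPM or more, had 14, 4 and 13 counts and was lowest in sh1362. ACTA2 had 0, 5 and 2 counts, PDGFRB 0, 1 and 0, THY1 2, 0 and 0, and LUM 2, 0 and 1. Endothelial markers summed to 11.6, 5.42 and 20.1 CPM, mostly from KDR, and TEK was at 0 throughout.

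NCI-H209 expressed a basement membrane set, led by laminins. In bulk RNA a lower level can come from fewer cells expressing a gene or from less RNA per cell, and these cannot be told apart. Of the 64 genes, 39 had a mean of 1 CPM or more, 17 had fewer counts, at most 14 over the 3 libraries together, and 8 had no count at all. The members summed to 563 TPM in sh490, 416 in sh1362 and 601 in shGFP. Laminins made up 60.6%, 58.4% and 60.4% of these sums and collagens 28.9%, 35.2% and 27.6%.

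The chains LAMB3, LAMB1 and LAMC1 stood far above the alpha chains. LAMB3, the beta chain of the laminin that anchors epithelia at hemidesmosomes (chr1:209614870-209652425), had 110 TPM in sh490, 77.2 in sh1362 and 104 in shGFP. LAMB1, a beta chain of most basement membranes (chr7:107923799-108003187), had 94.4, 72.8 and 99.0 TPM. The ranges of these genes overlapped, so their order cannot be told from these libraries. LAMC1, the widespread gamma chain, followed with 73.0, 51.6 and 82.7 TPM. All 5 alpha chains, which carry the sites for cell receptors, were present at lower levels. LAMA4 had 10.1, 9.22 and 14.4 TPM, LAMA3, an alpha chain that pairs with LAMB3, 6.55, 5.62 and 9.27, and LAMA5 6.73, 3.31 and 5.58. LAMA1 had 5.36, 3.74 and 4.59 TPM and LAMA2 4.03, 3.82 and 3.62. The alpha chains together gave 32.7, 25.7 and 37.4 TPM, against 205, 150 and 204 for the beta chains. LAMB2 was near the detection limit with 10, 4 and 9 counts, LAMB4 had 2, 3 and 3 counts, and LAMC3 had none in any library.

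The linkers of the laminin sheet were unequal. NID1, nidogen-1, which bridges laminin and type IV collagen (chr1:235975830-236065109), had 41.2 TPM in sh490, 19.6 in sh1362 and 56.8 in shGFP, while its paralog NID2 had 3, 0 and 7 counts. HSPG2, which encodes perlecan, had 1.44, 0.400 and 1.47 TPM, and AGRN, which encodes agrin, the proteoglycan that clusters receptors at the nerve-muscle junction, 4.65, 2.38 and 2.62. VCAN, which encodes versican, a large chondroitin sulfate proteoglycan, had 5.12, 0.822 and 5.06 TPM. BGN and DCN, the small leucine-rich proteoglycans of connective tissue, had no count, which allows up to 0.378 CPM in sh490, 0.406 in sh1362 and 0.620 in shGFP. FN1, fibronectin, had 6.53, 3.56 and 5.13 TPM.

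**Figure D2:**
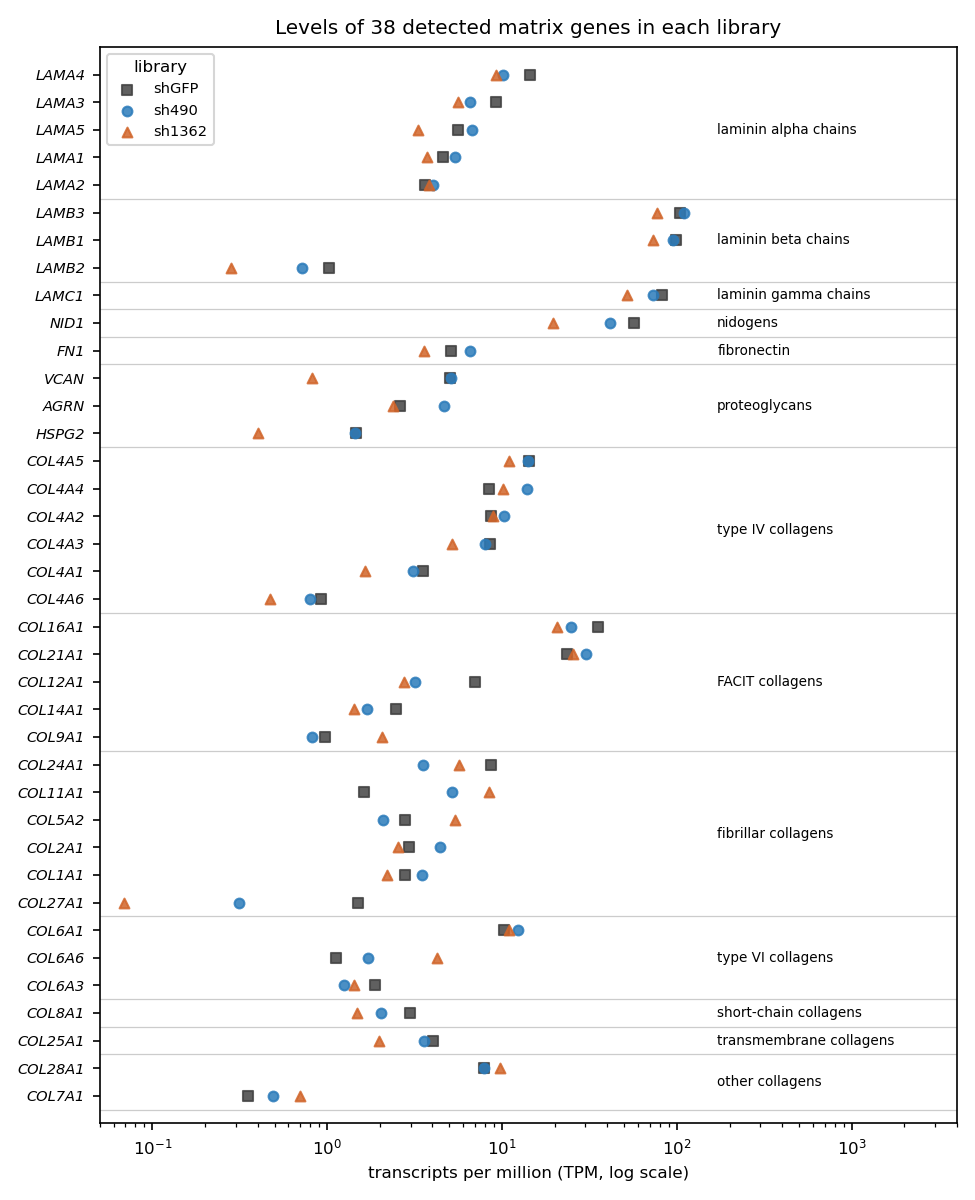
Level of 38 detected matrix genes in the libraries shGFP (square), sh490 (circle) and sh1362 (triangle), as TPM on a log axis, grouped by class. LAMB3, LAMB1 and LAMC1 lie highest at 51.6 to 110 TPM, and the triangle of sh1362 lies far left for VCAN, HSPG2 and COL27A1.

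Among collagens, the highest were not the fibrillar types. COL16A1 and COL21A1, members of the FACIT class, whose products attach to the surface of fibrils, had 24.8, 20.6 and 35.5 TPM and 30.2, 25.3 and 23.5 TPM in sh490, sh1362 and shGFP. COL6A1 had 12.4, 11.0 and 10.2 TPM. COL28A1, a minor collagen known from peripheral nerve, had 7.91, 9.74 and 7.89. Of the fibrillar class, 6 of 11 were detected, by mean TPM from COL24A1 with 3.54, 5.70 and 8.67 TPM down to COL27A1. COL11A1 was above COL24A1 in sh490 (5.18 TPM) and sh1362 (8.39 TPM), as was COL2A1 in sh490 (4.42 TPM).

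Partner chains of a trimer were not always found together. Type I collagen is built from COL1A1 and COL1A2 products; COL1A1 had 70, 45 and 35 counts and COL1A2 0, 4 and 0. The type VI trimer uses COL6A1, COL6A2 and one further chain; COL6A1 had 135, 122 and 70 counts, its neighbour COL6A2 0, 2 and 0, and COL6A3 50, 58 and 47. COL3A1, the fibrillar collagen of distensible tissue, had 2, 1 and 0 counts, and COL5A1, the usual partner of COL5A2, had none.

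All 6 type IV chains were detected, including the COL4A3, COL4A4 and COL4A5 chains that form the specialised network of kidney, lung and cochlea. COL4A5 had 14.0, 11.0 and 14.2 TPM, COL4A4 13.9, 10.1 and 8.38, COL4A2 10.2, 8.89 and 8.69, and COL4A3 8.02, 5.18 and 8.49. The ranges of COL4A5, COL4A4 and COL4A2 overlapped from one to the next, and that of COL4A3 lay just below COL4A2. COL4A1, whose product usually joins that of COL4A2, had 3.11, 1.65 and 3.52 TPM, below COL4A2 in each library. COL4A6 was lowest with 0.793, 0.468 and 0.927 TPM.

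Type IV genes lie head to head in pairs, and a stretch between the starts is shown for COL4A3 with COL4A4 and for COL4A5 with COL4A6. The stretch between COL4A1 and COL4A2 is not shown. The sequence between COL4A4 and COL4A3, chr2:227164454-227164564 of GRCh38.p14, and the 250 bases before the start of COL4A5 on the side of COL4A6, chrX:108439588-108439837, are printed on the plus strand from RefSeq promoter windows. Capitals mark the GC box GGGCGG and the CCAAT box, searched on both strands, and no capitals overlap.
COL4A3 and COL4A4: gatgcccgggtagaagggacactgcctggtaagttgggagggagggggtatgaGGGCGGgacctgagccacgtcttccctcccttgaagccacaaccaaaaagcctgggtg
COL4A5 and COL4A6: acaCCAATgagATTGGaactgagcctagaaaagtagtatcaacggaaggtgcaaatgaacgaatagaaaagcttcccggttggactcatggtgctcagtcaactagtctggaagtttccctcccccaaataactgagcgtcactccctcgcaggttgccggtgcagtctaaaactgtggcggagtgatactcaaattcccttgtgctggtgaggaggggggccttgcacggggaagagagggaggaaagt

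The first stretch, 111 bases long, held 1 GC box and no CCAAT box. It is the longest part free of annotated exons in the 418 bases between the RefSeq starts. Of 35116 RefSeq promoter windows, 32.9% held a GC box in the same length directly before the start, where exons were not left out. The second held 2 CCAAT boxes and no GC box, and 32% of windows of that length held a CCAAT box. The TATA box TATAAA was in neither, and in 5.35% and 10.7% of windows of these lengths. These matches describe the letters only. Across the first gap COL4A4 and COL4A3 stood at 8.38 and 8.49 TPM in shGFP, but at 13.9 and 8.02 in sh490 and at 10.1 and 5.18 in sh1362. Across the second the distance was wider in every library: COL4A5 lay at 11.0 TPM or more in every library and COL4A6 at 0.927 or less.

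To see how matrix genes stood when YES1 was targeted, both hairpin libraries were compared with shGFP. No member passed the edgeR quasi-likelihood test at a Benjamini-Hochberg adjusted p under 0.05 (0 of 39 tested, against 4 of 15708 genes, 0.0255%). At an unadjusted p under 0.05 there were 3 of 39, COL11A1, COL12A1 and COL27A1, where 4.35% of all genes passed; COL27A1 entered the test through its count in shGFP. In simulated data of this comparison, run on 15708 genes, differences were set only in genes averaging at least 5 CPM. Among those the test recovered 79% of 4-fold and 7% of 2-fold differences, so most 2-fold differences could not have been called. Recovery below 5 CPM, where COL27A1 lay with a mean of 2.33 CPM, was not simulated. In the real libraries COL11A1 did not pass at a log2 fold of 2.09, so the 79% need not hold for them. Without a filter on low counts, COL11A1 passed (edgeR adjusted p 0.0431), as did 0.210% of the 27622 genes tested that way.

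COL11A1, a fibrillar collagen of cartilage that also marks invasive stroma in carcinomas (ENSG00000060718.22, chr1:102876467-103108872, minus strand), had 96, 158 and 19 counts, or 12.1, 21.4 and 3.93 CPM, with both hairpin libraries above shGFP and their counting intervals apart from it. Relative to shGFP it stood at 308% in sh490 and 545% in sh1362, where the exact 95% intervals for counting error ran from 187 to 534 and from 337 to 929. The edgeR estimate was a log2 fold of 2.09 (standard error 0.56, adjusted p 0.986). COL11A2, which encodes another chain of type XI collagen, had 5, 6 and 1 counts, too few to test.

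COL12A1, a FACIT collagen of tendon and other tissues under strain (chr6:75084326-75206053), had 81, 71 and 112 counts, or 10.2, 9.61 and 23.2 CPM. The hairpin libraries were alike and both below shGFP, at 44.1% (32.7 to 59.2) and 41.5% (30.4 to 56.4) of it. For COL12A1 edgeR gave a log2 fold of -1.22 (standard error 0.38, adjusted p 0.986). COL27A1, a fibrillar collagen of developing cartilage (chr9:114155537-114312511), had 9, 2 and 27 counts. It was at 20.3% (8.41 to 44.5) and 4.85% (0.559 to 19.3) of shGFP, and edgeR gave -2.94 (standard error 0.92, adjusted p 0.986) from few counts.

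By size alone, 1 of 39 members was at least 2-fold higher with both hairpins (COL11A1), where 2.40% of 15346 genes were, and another 2 were lower by that much (COL12A1 and COL27A1), where 1.37% were. With differences of any size, 21 of 39 were lower with both hairpins, against 34.4% of genes, and 8 higher with both, against 34.1%. Over the 39 the median log2 fold was -0.11 for sh490 but -0.44 for sh1362, beside medians of 0.00 in all genes. COL27A1 reached the mean of 1 CPM only through shGFP, the library where it was high, so its place in the count of lower genes was partly set by that filter. Both comparisons share the shGFP library, the one with globin RNA, so a value peculiar to it enters each; its part in these folds was not tested.

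With sh490 alone, 1 member was at least 2-fold higher than shGFP (background 3.83%) and 3 at least 2-fold lower (3.54%). The third of these, after COL12A1 and COL27A1, was COL24A1, a minor fibrillar collagen, with 69, 113 and 106 counts. It was at 39.7% of shGFP in sh490 (28.9 to 54.3) and 69.8% in sh1362 (53.1 to 91.9), and edgeR gave -0.87 (standard error 0.44).

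With sh1362, 4 members were at least 2-fold higher than shGFP (background 6.59%) and 7 at least 2-fold lower (7.88%). Besides COL11A1 the higher genes were collagens COL6A6, COL9A1 and COL5A2. The lower genes included COL12A1, COL27A1, VCAN, HSPG2, NID1 and LAMB2, of which NID1, HSPG2 and LAMB2 encode basement membrane components. LAMB2 rested on 4 counts in sh1362 against 9 in shGFP. With 1.26, 0.542 and 1.86 CPM, LAMB2, like COL27A1, reached the mean of 1 CPM only through shGFP, where it was high. Its place among the lower genes was therefore partly set by that filter. It was at 29.1% of shGFP (6.55 to 104), so its counting interval held the shGFP level, unlike those of the other genes named. NID1 had 488, 236 and 422 counts, or 61.5, 32 and 87.2 CPM. Its level was 70.5% of shGFP with sh490 (61.8 to 80.5) and 36.6% with sh1362 (31.1 to 43.1). For NID1 the libraries ranked shGFP, sh490, sh1362 from high to low, and it did not pass the test (edgeR log2 fold -0.90, standard error 0.40, adjusted p 0.986).

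Several laminin chains kept closer to the control. LAMC1 was at 85.8% (78.7 to 93.6) and 66.3% (60.4 to 72.8) of shGFP, and LAMB1 at 92.6% (85.5 to 100) and 78.1% (71.8 to 84.9). LAMB3 was at 103% (93.2 to 114) and 78.9% (70.8 to 87.9). LAMA4 was at 68.2% with each hairpin, and LAMA3 at 68.7% and 64.4%. LAMA5 was opposite, at 117% (91.8 to 150) and 62.9% (47.2 to 83.9). LAMA1 and LAMA2 had counting intervals that held 100% with both hairpins. Of the exon bases of LAMA1, 11.1% are shared with other annotated genes. In all, 9 of 10 detected laminins were below shGFP in sh1362, as were 50.2% of all genes, and 6 of 10 in sh490, as were 50% (7678 of 15346), and the medians were -0.57 and -0.17 on the log2 scale.

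**Figure D3:**
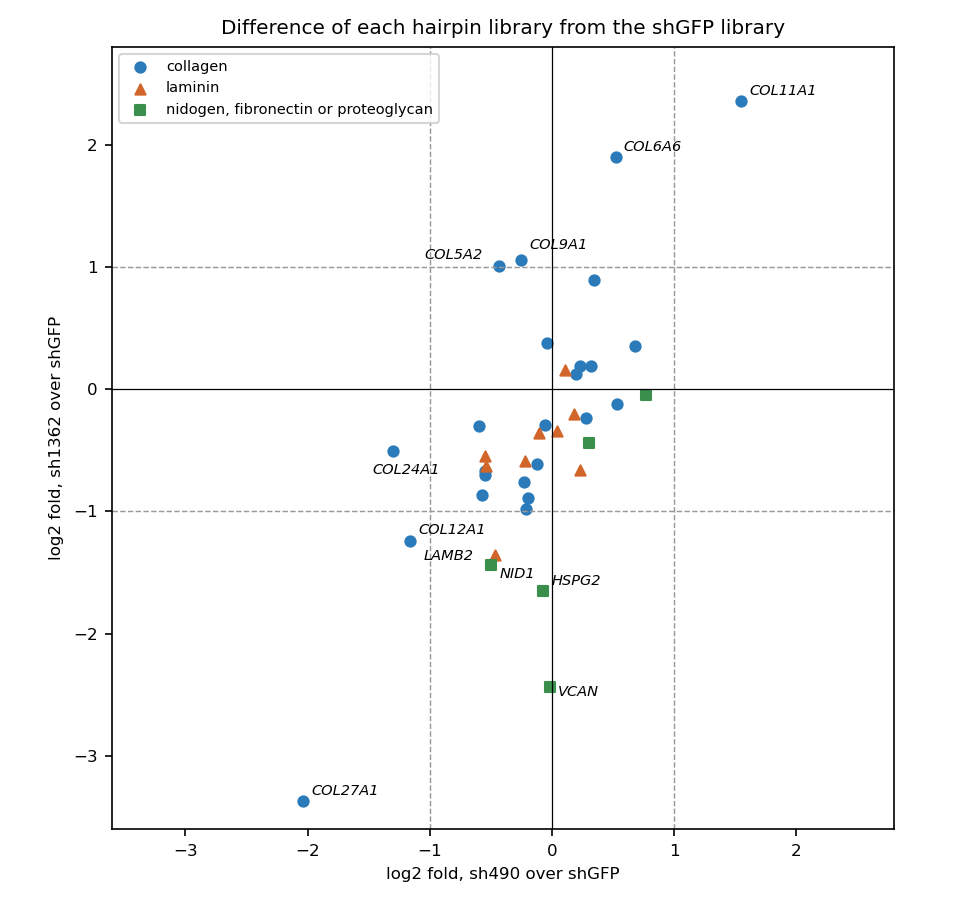
Log2 fold over shGFP with sh490 (horizontal axis) and with sh1362 (vertical axis) for 38 detected genes; dashed lines mark 2-fold, and genes at least 2-fold apart in any pair of libraries are named. Both axes share the shGFP library; COL11A1 lies at 1.55 and 2.36, COL27A1 at -2.04 and -3.37, and VCAN at -0.02 and -2.44.

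No type IV chain reached 2-fold from shGFP in log2 CPM with either hairpin, although the plain ratio of COL4A1 in sh1362 lay just past it. COL4A4 was at 161% of shGFP (129 to 203) with sh490 and 128% (101 to 163) with sh1362, while its neighbour COL4A3 was at 91.8% (70.7 to 120) and 64.8% (48.5 to 86.6). COL4A1 was at 85.9% (62.0 to 120) and 49.6% (33.7 to 72.7), and COL4A2, across their shared start region, at 115% (96.8 to 136) and 109% (91.4 to 129). COL4A5 was at 95.7% and 81.9%. COL4A6, at 83.2% and 53.6%, had at most 15 counts in a library. For COL4A3 and COL4A4, and for COL4A1 and COL4A2 with sh1362, the intervals of the partners did not overlap, whereas those of COL4A5 (80.5 to 114 and 68.2 to 98.4) and COL4A6 (35.7 to 200 and 19.6 to 142) did. Of the exon bases of COL4A3, 9.18% are shared with another gene, and no option to count reads over overlapping genes is recorded.

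The hairpins were then compared directly, which leaves shGFP out of the ratio but not out of the filter on mean CPM. Of 39 members, 3 were at least 2-fold higher in sh490 (VCAN, HSPG2 and COL27A1), where 5.71% of genes were. Another 3 were at least 2-fold higher in sh1362 (COL5A2, COL6A6 and COL9A1), where 4.71% were. COL27A1 rested on 9 counts in sh490 and 2 in sh1362, or 1.14 and 0.271 CPM, and passed that filter only through shGFP. In sh1362 it was at 23.9% of sh490 (2.51 to 115). Its counting interval thus held the sh490 level, unlike those of the other genes named. By any amount, 30 of 39 were higher in sh490, against 50.8% of all genes, and the median log2 difference was 0.30 beside 0.01. There was no test, since each hairpin had 1 library.

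VCAN (chr5:83471618-83582303) had 153, 25 and 95 counts, which put sh490 at 98.2% (75.5 to 128) of the control and sh1362 at 17.2% (10.6 to 27.0). HSPG2 had 53, 15 and 34 counts, 95.1% (60.7 to 151) and 28.9% (14.6 to 54.5), again lowest in sh1362. AGRN, another heparan sulfate proteoglycan of the set, had 102, 53 and 36 counts and was at 173% (117 to 260) and 96.4% (62.0 to 152). FN1 had 229, 127 and 113 counts and was at 124% (98.2 to 156) and 73.6% (56.7 to 95.7). All of these had less in sh1362 than in sh490, and none passed the edgeR test against shGFP (adjusted p 0.986 to 0.998). Of the 6 endothelial markers, KDR had 81, 24 and 80 counts and was also lowest in sh1362, while PECAM1 had 8, 15 and 10. The others had few or none: CDH5 had 3, 0 and 4 counts, VWF 0, 1 and 2, CLDN5 0, 0 and 1, and TEK 0 in all. The part of such cells in these values was not tested. Of the exon bases of HSPG2, 11.7% lie under another gene.

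In the other direction, COL5A2, a chain that limits the width of type I fibrils, had 31, 82 and 26 counts. It was at 72.7% (41.8 to 127) of shGFP with sh490 and 207% (131 to 335) with sh1362. COL6A6, an alternative type VI chain, had 34, 86 and 14 counts, 148% (77.4 to 299) and 402% (227 to 767). COL9A1, a FACIT collagen of cartilage, had 12, 31 and 9 counts, 81.3% (31.4 to 219) and 226% (105 to 539). In these 3 genes sh1362 held the highest level, and the intervals of sh490 held 100% of shGFP.

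**Figure D4:**
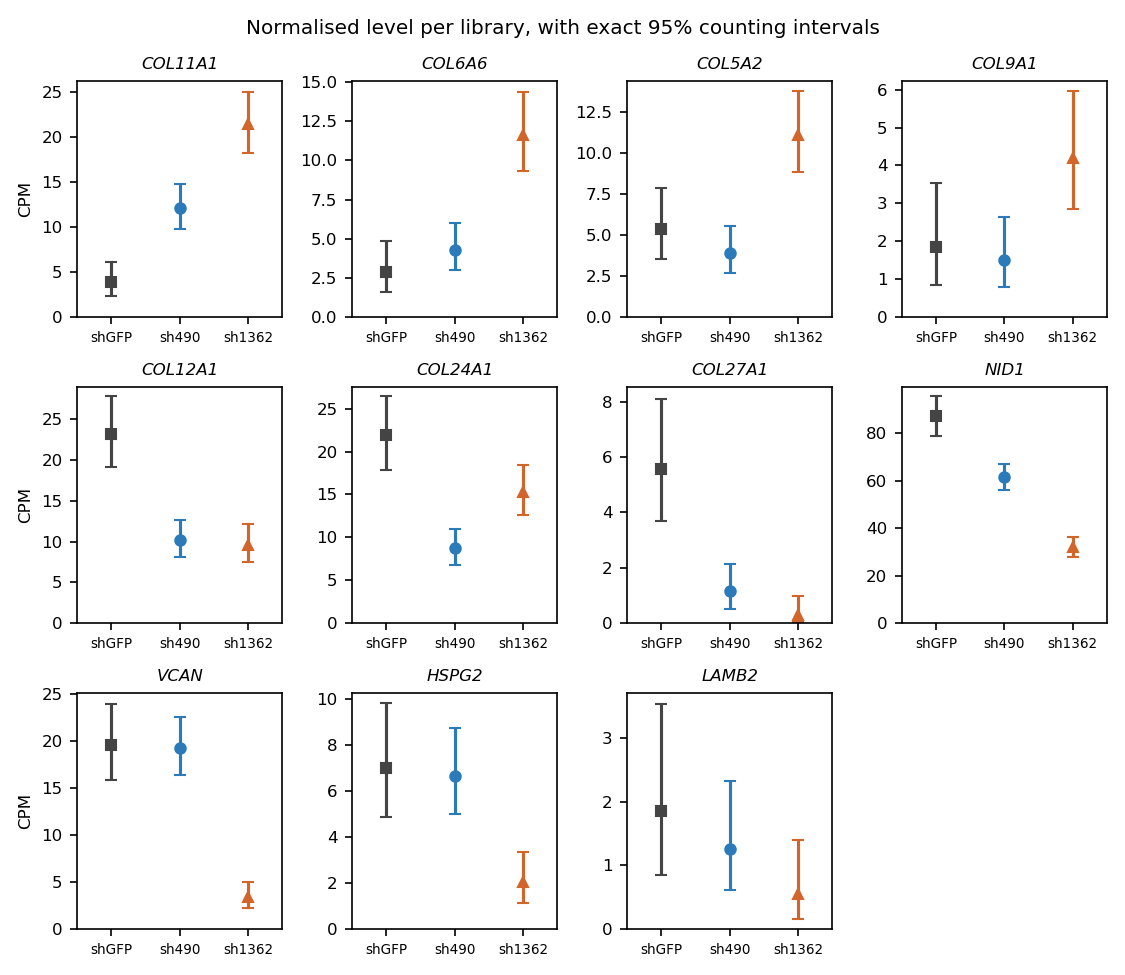
Normalised level (CPM, axes from 0) in shGFP, sh490 and sh1362 for 11 genes at least 2-fold apart in at least 1 of the comparisons; bars are exact 95% counting intervals of 1 library each. The interval of shGFP lies apart from those of both hairpin libraries for COL11A1, COL12A1, COL27A1 and NID1, and VCAN is at 19.3, 3.38 and 19.6 CPM in sh490, sh1362 and shGFP.

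The remaining detected collagens lay within 2-fold of shGFP in log2 CPM. COL16A1 was at 68.0% (59.4 to 77.7) and 61.6% (53.6 to 70.8), and COL21A1 at 125% (105 to 148) and 114% (96.1 to 136). COL6A1 was at 118% and 114%, COL6A3 at 64.9% and 80.8%, COL1A1 at 122% and 84.2%, COL2A1 at 146% and 91.7%, and COL28A1 at 97.4% and 131%. COL8A1 and COL14A1 were at 52.8% to 66.7% and COL25A1 at 86.7% and 52.4%. COL7A1, which anchors epithelium to dermis, had 11, 16 and 5 counts.

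Other genes of the matrix were taken from 4 lists. In none did a member pass the edgeR test, in either direction. Of the 31 genes that fold, modify and crosslink collagen, 25 were detected, and their medians were -0.16 (sh490) and -0.18 (sh1362) on the log2 scale. P4HB, a subunit of the prolyl hydroxylase that stabilises the helix, and PPIB, a prolyl isomerase, had the highest levels, with 3764, 5239 and 2754 and with 688, 873 and 469 counts. LOXL2, a crosslinking lysyl oxidase, was the 1 of 25 at least 2-fold lower with both hairpins (1.37% of all genes), with 64, 43 and 102 counts. SERPINH1, the collagen chaperone HSP47, had 321, 549 and 180 counts.

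Of 31 proteases and inhibitors 17 were detected, with medians of -0.13 and -0.32. PLAT, tissue plasminogen activator, had 26, 30 and 2 counts and CTSK, the collagen-degrading cathepsin K, 18, 40 and 4; both were at least 2-fold higher with both hairpins, where 2.40% of all genes were. They counted as detected only through the hairpin libraries, where they were high. By mean TPM CTSB and TIMP1 led the list, although ADAM10 (33.2 TPM) was above TIMP1 (29.7 TPM) in sh1362; the lysosomal protease CTSB had 866, 802 and 580 counts and the inhibitor TIMP1 128, 89 and 103. Of 23 laminin and collagen receptors 17 were detected, with medians of 0.31 and 0.47, 9 higher and 3 lower with both hairpins by any amount (34.1% and 34.4% of all genes), and none at least 2-fold with both. By mean TPM ITGB1 and RPSA led this list, although DDR1 (85.2 TPM) was above RPSA (81.4 TPM) in sh490 and SDC4 (72.9 TPM) above RPSA (69.3 TPM) in sh1362. ITGB1, the common beta chain of laminin- and collagen-binding integrins, had 2486, 2186 and 1593 counts, and RPSA, a ribosomal protein also described as a laminin receptor, 648, 561 and 493.

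Of 56 other matrix glycoproteins and cell-surface proteoglycans 27 were detected, with medians of -0.21 and -0.28. Of these 27, 4 lay below shGFP by 2-fold or more in sh490 and sh1362 alike, where 1.37% of all genes did. EGFL6, a secreted basement membrane protein, had 27, 44 and 110 counts, and THBS1, thrombospondin-1, 139, 88 and 209. SMOC1, a calcium-binding basement membrane protein, had 415, 580 and 864, and SPARC, which binds collagen, 4, 3 and 11. SPARC counted as detected only through shGFP, where it was high. By mean TPM over the libraries SMOC1 and ECM1 led the list, ECM1 with 433, 556 and 566 counts, but in sh490 GPC3 was at 64.1 TPM, ECM1 at 63.3, MATN2 at 52.8 and SMOC1 at 46.6.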

How the data were processed

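Each library has 1 deposited table of raw counts, which the authors made with featureCounts 1.6.0 over GENCODE version 32 exons, per the file headers. STAR 2.6.1c and GRCh38 are named in the submitters' processing notes. The recorded command sets no strand option, so overlapping antisense genes cannot be told apart; 24 members share exon bases with another gene. Biotypes came from GENCODE version 29 and symbols from a gene ID table.

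The 2 hairpins against YES1, taken as 1 group, were compared with shGFP in edgeR 4.0.16 (TMM, filterByExpr, robust quasi-likelihood F test, two-sided, Benjamini-Hochberg over 15708 genes), with 1 residual degree of freedom. Since shGFP is a single library, that degree of freedom comes from the difference between sh490 and sh1362, and the spread was moderated over genes. The p-values therefore reflect how far these different hairpins disagree. They do not measure spread among control libraries or among repeated cultures, and the labels name no separate cultures. Each hairpin was compared singly by size, with no test, on log2 CPM (prior count 2) among genes averaging at least 1 CPM. Exact 95% intervals were Clopper-Pearson for the level of 1 library relative to another and Poisson for the CPM of a single library. These intervals and the floor of 3 counts cover counting error only. TPM used the merged exon length, which understates genes with many alternative exons. The fit was tested on simulated data. Other filters, size factors, priors, DESeq2 1.42.0 and limma-voom 3.58.1 were tried as alternatives.

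Named with values were the 15 members of highest mean TPM, those at least 2-fold from shGFP with both hairpins or between hairpins, laminins, nidogens, type IV chains, proteoglycans and FN1, and from each list up to 4 genes past 2-fold with both hairpins and the 2 of highest TPM. Other members, SERPINH1 and KDR were named after their values were seen. The members and lists were chosen with earlier results of these data known. The values of 1 member are not reported here; it is in the counts and sums.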

Additional observations from a re-analysis of the deposited data

How the results depend on the processing

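The count of members past the edgeR test was 0 in the fit reported and also 0 with median-of-ratios size factors, with a minimum mean of 5 CPM, with DESeq2 and with limma-voom; without a filter on low counts it was 1, COL11A1 (log2 fold 2.11, edgeR adjusted p 0.0431, against 0.984 to 1 in the other edgeR fits and DESeq2). Counts of members at least 2-fold apart were within 1.5 times of those reported, except with a minimum mean of 0.5 CPM, which gave 8 for sh490 against shGFP in place of 4 and 10 for sh490 against sh1362 in place of 6; more low-count genes enter there. Of 151 values of single genes under other fits, 148 kept direction and side of the threshold. FN1 turned to 0.00 without a filter and LAMA1 to -0.00 with median-of-ratios factors, both from values near 0. Leaving out a hairpin gives 1 library against 1, a value with no test: 29 of 39 genes kept their direction with either hairpin. The others ranged from -0.34 to 0.04 for LAMB3, -0.04 to 0.38 for COL28A1, -0.66 to 0.23 for LAMA5, -0.44 to 0.30 for FN1, -0.20 to 0.18 for LAMA1, -0.43 to 1.01 for COL5A2, -0.12 to 0.53 for COL2A1, -0.05 to 0.77 for AGRN, -0.24 to 0.28 for COL1A1 and -0.25 to 1.06 for COL9A1. No paired analysis was possible because shGFP is 1 library and the labels carry no replicate numbers. Depth limits the 4 detected members under 50 counts in all.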

Other observations

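The FRAS1 and FREM proteins form a complex in the basement membrane of developing epithelia, and 3 of the 4 genes listed were detected in this line; they were picked after their values were seen. In the order sh490, sh1362 and shGFP, FREM2 had 1450, 468 and 979 counts, with log2 folds over shGFP of -0.15 and -1.67, so that it was lowest in sh1362, as VCAN and HSPG2 were. FRAS1 had 143, 145 and 128 counts, and FREM1 18, 12 and 6, while FREM3 had 0, 0 and 3 and was not detected by the mean of 1 CPM. Among membrane-anchored proteoglycans, also picked afterwards, the syndecan SDC1 had 504, 382 and 131 counts (log2 folds of 1.22 and 0.93), and the glypican GPC3 414, 306 and 148. GPC4 had 287, 168 and 225. FREM3 had too few counts to be tested, and none of the other genes passed the edgeR test (adjusted p 0.986 for each).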
